A study of Mus musculus with 6 samples.

Results

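The miR-23, miR-27 and miR-24 miRNAs of the mouse are made from 2 paralogous clusters of hairpins, and the reads of both clusters were described here in the normal adult heart. The members are the hairpins Mir23b, Mir27b and Mir24-1 on chromosome 13 and Mir23a, Mir27a and Mir24-2 on chromosome 8, each with a 5p and a 3p arm. The rule that selects them goes by their names and uses no measured value. Of the 1026 sense rows among the 1102 rows of each count file, 10 carry one of these names, and they cover 5 of the 6 hairpins. Mir24-1 had no sense row of its own. Its 2 arms are covered by rows that the files list as antisense to Mir3074-1, a hairpin of the other strand that lies at that place, and these rows were taken for Mir24-1, which gives 12 arms in all.

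The series holds 6 small-RNA libraries that form 1 group, numbered here heart 1 to heart 6 after the labels. All come from male wild-type C57BL/6J mice, a common inbred strain, aged 18 weeks and with no treatment named. The tissue field of the labels reads as the entire heart, whereas their protocol speaks of the frozen apex of the ventricles, and which of the 2 was sequenced is not settled here. No label says that the libraries came from separate animals, so each p-value concerns only the spread between these samples, which may be technical in part.

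The libraries held between 3966197 and 6007351 counts, so a count of 0 allows up to 3 counts, or 0.499 to 0.756 CPM, where CPM stands for reads in 1000000 counted reads of that library. No pair of libraries had the same profile within sampling noise. All 6 listed miRNAs of cardiac muscle had rows, together 9.93% ± 0.467 of the counts (mean ± SD, n = 6, as in all values given this way). Low shares were found for erythroid miRNAs (0.395% ± 0.143) and leukocyte miRNAs (0.245% ± 0.0343), against 8.97% ± 0.537 for the endothelial Mir126 and 9.03% ± 1.67 for the smooth muscle miRNAs. In such bulk tissue, fewer cells of a type and less RNA per cell cannot be told apart.

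A cluster of this kind is transcribed as one precursor RNA, from which the nuclease Drosha cuts each hairpin and Dicer then frees a short duplex of the 5p and the 3p arm. One strand of the duplex is usually loaded into an Argonaute protein as the guide, and its seed, bases 2 to 8, pairs with target mRNAs, while the other strand is mostly degraded. The family is known from blood vessels, where miR-23 and miR-27 act in angiogenesis through targets such as Sprouty2 and Sema6A, and from heart muscle, where miR-23a has been tied to hypertrophic growth and miR-24 to cell survival.

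The mature sequences show which arms can be told apart by their reads. They were taken from RefSeq on GRCm38.p6, where 11 of the 12 arms were matched (all but miR-23b-3p), and are written 5′ to 3′ with the seed in capitals. The first set gives the 3p arms, which carried most reads, in order of their seeds.
miR-27b-3p: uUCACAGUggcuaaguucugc
miR-27a-3p: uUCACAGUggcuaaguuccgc
miR-23a-3p: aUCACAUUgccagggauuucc
miR-24-3p: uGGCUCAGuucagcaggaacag
Both miR-27 guides have the seed UCACAGU and are identical over 18 bases from the 5′ end, and they differ by C19U alone (miR-27a base, position from the 5′ end, miR-27b base). miR-24-3p is one sequence of 22 bases at both loci. The seed of miR-23, UCACAUU, stood apart from that of miR-27.

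The 5p arms are shown because they differ more between the loci.
miR-24-2-5p: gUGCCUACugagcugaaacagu
miR-24-1-5p: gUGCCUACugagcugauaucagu
miR-27a-5p: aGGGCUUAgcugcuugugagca
miR-27b-5p: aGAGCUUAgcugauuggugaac
The miR-24 5p arms share the seed UGCCUAC and 16 first bases before they diverge. The miR-27 5p arms differ at 8 positions, one of them in the seed (G3A, the base of miR-27a first). Outside the members, the RefSeq records searched held no other mouse miRNA with the seed of miR-23 or of miR-27. They held 4 with the seed of miR-24 (miR-5124b, miR-6369, miR-6410 and miR-6413), and no row of the count files is named for them. The search left out the records of a chromosome that holds no member, so it does not cover all mouse miRNAs.

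Both clusters are short and keep the same order of hairpins on the plus strand (GRCm38 throughout, positions counted from 1). The chromosome 13 cluster spans 792 bases (chr13:63300484-63301275) and lies inside the gene 2010111I01Rik on the same strand and inside Fancc on the opposite strand. Mir23b lies in an intron of 2010111I01Rik, and Mir27b and Mir24-1 overlap exons of its transcripts annotated for nonsense-mediated decay. The chromosome 8 cluster spans 404 bases (chr8:84208518-84208921). Mir23a and Mir27a overlap no annotated gene, and only 2 bases of Mir24-2 overlap an exon of the lincRNA Gm26532. On the opposite strand, Mir3074-2 overlaps 83 bases of Mir24-2, as Mir3074-1 overlaps Mir24-1. Hairpins were separated by 154 and 423 bases on chromosome 13 and by 79 and 56 bases on chromosome 8.

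**Figure D1:**
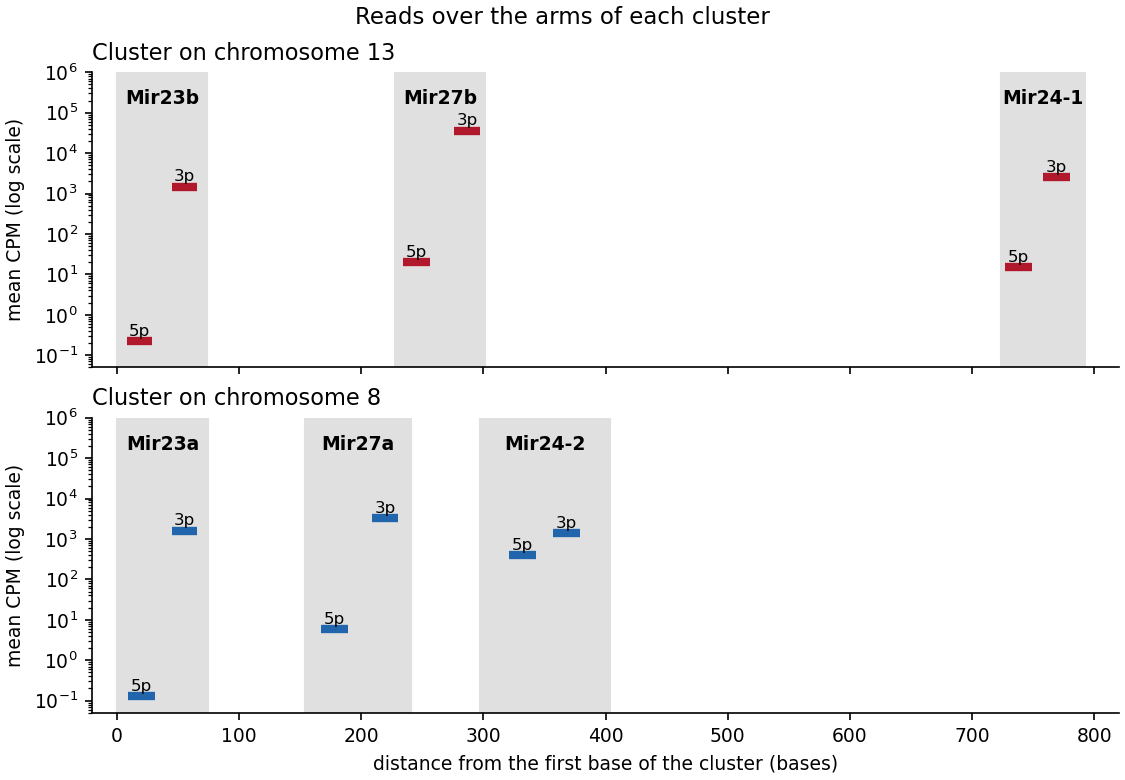
Mean CPM of each arm (bars, log scale, 6 hearts) at its distance in bases from the first base of its cluster, with grey blocks for the hairpins. The 3p bar stands above the 5p bar in every hairpin, and the gap is smallest in Mir24-2 (1407 against 404.5 CPM).

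The 12 arms together held 4.68% ± 0.262 of all counts, and most of that was miR-27b-3p. The chromosome 13 cluster had between 3.77% and 4.31% of a library, with a median of 4.003%, and the chromosome 8 cluster between 0.603% and 0.747%, with a median of 0.664%. The ranges did not overlap. Within each heart the chromosome 13 cluster was 5.66-fold to 6.50-fold above the other, with a mean of 5.98-fold (log2 ratio 2.58 ± 0.08, SD, n = 6, exact sign-flip permutation test, two-sided, p = 0.03125, the smallest that 6 hearts allow). The clusters were composed differently. Mir27b made up 89.9% ± 1.02 of the chromosome 13 cluster, followed by Mir24-1 with 6.43% ± 0.854 and Mir23b with 3.68% ± 0.337. On chromosome 8, Mir27a made up 49.1% ± 1.74, Mir24-2 27.02% ± 2.12 and Mir23a 23.9% ± 0.790. Without the miR-27 hairpins the cluster ratio was 1.18-fold (log2 ratio 0.24 ± 0.07, SD, higher on chromosome 13 in 6 of 6 hearts, exact p = 0.03125). Of the tested pairs of arms left, only miR-24-3p was higher on chromosome 13 (1.82-fold), whereas miR-23-3p and miR-24-5p were lower there. miR-24-3p has the same sequence at both loci, so the direction of this ratio depends on how its reads were booked.

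The level of each arm set them in a wide order. miR-27b-3p, which has been studied for its action on the nuclear receptor PPARγ, ranked 8 among the 1064 rows used. Its CPM ran from 34004 in heart 2 over a median of 35978 to 38100 in heart 5. miR-27a-3p, its paralog, ranked 34, with 2843 CPM in heart 6, a median of 3332 and 3555 in heart 4. The lowest heart of miR-27b-3p therefore stood far above the highest of miR-27a-3p.

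miR-24-3p came next, counted separately at its 2 loci. On the rows of Mir24-1 it had between 2096 CPM in heart 3 and 3273 in heart 5, with a median of 2497. On Mir24-2 it had between 1186 CPM in heart 3 and 1799 in heart 5, with a median of 1371. The same hearts thus gave the lowest and the highest level at both loci, and the loci did not overlap. Because the sequence is the same at both, loci that vary alike and shared reads divided between the rows cannot be told apart.

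The miR-23 guide arms were close to each other and to miR-24-3p of Mir24-2. miR-23a-3p had 1383 CPM in heart 6, a median of 1582 and 1793 in heart 5. miR-23b-3p had 1299.9 CPM in heart 6, a median of 1390 and 1743 in heart 4. These 2 ranges overlapped over most of their length. By mean, miR-24-3p of Mir24-1 (2562 ± 393 CPM) stood below miR-27a-3p (3288 ± 262) and above miR-23a-3p (1601 ± 150), and neighbours further down, miR-23b-3p (1481 ± 202) and miR-24-3p of Mir24-2 (1407 ± 211), lay within one SD of each other.

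The 5p arms were all lower than the 3p arms, and miR-24-2-5p stood highest among them. It had 369 CPM in heart 6, a median of 405.1 and 433 in heart 1, and ranked 87. miR-27b-5p followed at 20.3 ± 4.35 CPM, miR-24-1-5p at 15.0 ± 2.71 and miR-27a-5p at 5.90 ± 2.21. miR-23b-5p had 7 reads over the 6 libraries, or 0.237 CPM pooled (exact Poisson 95% interval 0.0953 to 0.488), and miR-23a-5p had 4 reads, or 0.135 CPM (0.0369 to 0.347). These intervals overlap and cover counting error only, since the reads carried no molecular identifiers.

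**Figure D2:**
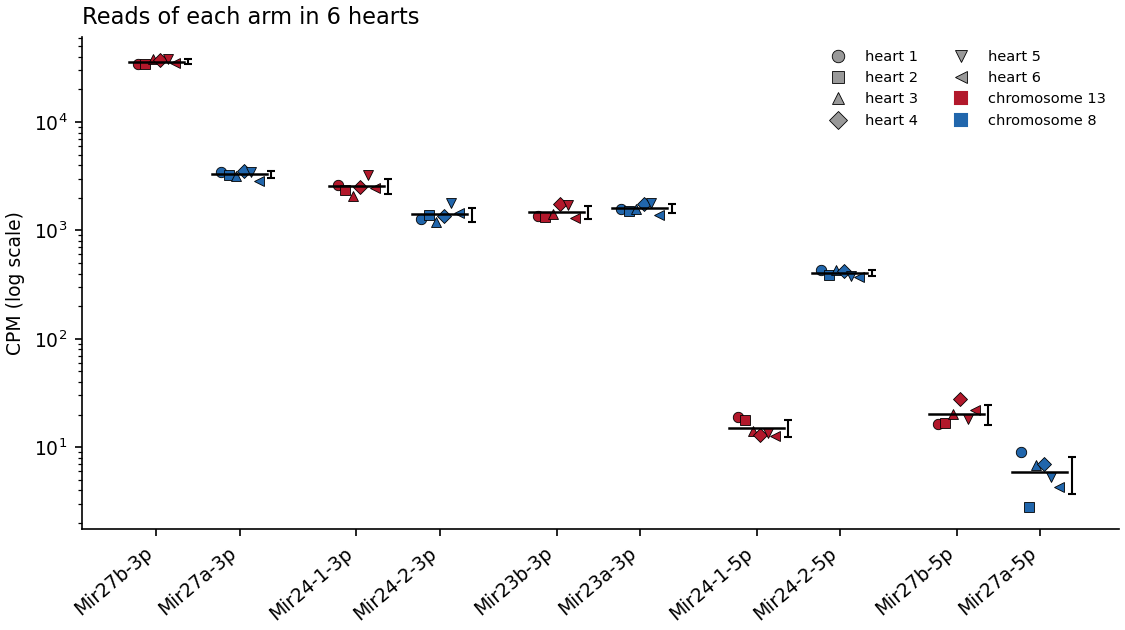
CPM of 10 arms in each of 6 hearts (symbols, log scale), with the mean (line) and SD (error bar), coloured by cluster. Paralogous arms stand side by side: the 6 hearts of miR-27b-3p and miR-27a-3p are far apart, those of miR-23b-3p and miR-23a-3p overlap, and those of miR-24-1-5p lie below those of miR-24-2-5p.

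Set hairpin by hairpin, the paralogs differed in opposite directions. Each pair was put to edgeR's quasi-likelihood test within hearts, and called at an adjusted p under 0.05 with at least a 2-fold ratio. Of 5 paralogous pairs of arms tested, 3 were called, while 79.2% of the 288 such pairs in the files were called in either direction. Adapters are not ligated equally well to all RNA ends, so these ratios compare reads and not molecules.

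miR-27b-3p was 10.97-fold above miR-27a-3p. Per heart, the ratio went from 9.94 in heart 1 over a median of 10.7 to 12.2 in heart 6, and was above 1 in 6 of 6 hearts (log2 ratio 3.46 ± 0.05, SE, adjusted p = 1.05e-16 with edgeR, exact p = 0.03125). On chromosome 13 lay 91.6% ± 0.614 of all miR-27-3p reads. The pair is told apart only at position 19, and how the authors' counting treated reads that match both loci is not given in the sources used here, so the division between them is uncertain.

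The 5p partners of the same hairpins also favoured chromosome 13, by less. miR-27b-5p was 3.48-fold above miR-27a-5p (log2 ratio 1.80 ± 0.19, SE, edgeR adjusted p = 4.14e-07). The ratio was uneven between hearts, at 1.81 in heart 1, a median of 3.70 and 5.93 in heart 2, where miR-27a-5p had 14 reads. These arms share only their first 2 bases before the first mismatch.

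The miR-24 arms went opposite ways at the 2 loci. miR-24-3p had 1.82-fold more reads on Mir24-1 than on Mir24-2, under the 2-fold limit (log2 ratio 0.86 ± 0.05, SE, edgeR adjusted p = 2.75e-10). The ratio ran from 1.70 to 2.05, with a median of 1.79, and was above 1 in 6 of 6 hearts. Only heart 1, at 2.05, was above 2-fold. miR-24-1-5p, in contrast, was 26.9-fold below miR-24-2-5p (log2 ratio -4.75 ± 0.10, SE, edgeR adjusted p = 3.63e-15). Between 22.0 reads (heart 2) and 32.7 reads (heart 4) of miR-24-2-5p were counted per read of miR-24-1-5p, with a median of 28.6. Only 3.58% ± 0.572 of the miR-24 5p reads lay on chromosome 13, against 64.5% ± 1.56 of the 3p reads.

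The 3p value of miR-24 divides reads of one sequence, so it shows where reads were booked and not which locus made them. Over the 30 paralogous pairs whose matched mature sequences were identical, the median ratio was 4.24-fold, 26 exceeded 2-fold and 0 lay within 1.1-fold. Over the 196 pairs whose matched sequences differed, the median was 5.68-fold, 154 exceeded 2-fold and 2 lay within 1.1-fold. Pairs without a matched sequence, some of which may be identical, are in neither set. The rows taken for Mir24-1 also sit off its arms. The window of the first (chr13:63301242-63301263) covers 13 of the 22 bases of miR-24-3p, and that of the second (chr13:63301211-63301232) covers 20 of the 23 bases of miR-24-1-5p. Whether this changed their counts was not tested.

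miR-23 differed least. miR-23b-3p was 1.08-fold below miR-23a-3p, lower in 6 of 6 hearts, with a ratio of 0.860 in heart 1, a median of 0.919 and 0.998 in heart 4 (log2 ratio -0.12 ± 0.05, SE, edgeR adjusted p = 0.0293, exact p = 0.03125). In heart 4 the counts were nearly tied, at 6912 against 6928, and the exact p rests on that sign too. The adjusted p ran from 0.00848 to 0.248 over the alternatives, and without heart 1, 2 or 3 it was 0.0942, 0.0896 or 0.0825, so the difference in miR-23 did not hold its side of the threshold. Whether reads of this pair were divided between the loci in counting was not tested. miR-23a-5p and miR-23b-5p had too few reads to be tested against each other.

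The ratios were also compared with each other within hearts, in 10 pairs of ratios. The chromosome 13 excess of miR-27-3p exceeded that of miR-24-3p by 2.59 ± 0.20 log2 units (SD, 6 of 6 hearts) and that of miR-27-5p by 1.60 ± 0.58 (6 of 6). It exceeded that of miR-23-3p by 3.57 ± 0.13 (6 of 6), and miR-24-3p exceeded miR-24-5p by 5.63 ± 0.24 (6 of 6). Each of these has an exact p of 0.03125, unadjusted, the smallest that 6 hearts allow. Only the difference of miR-24-3p from miR-27-5p missed it, with an exact p of 0.0625.

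**Figure D3:**
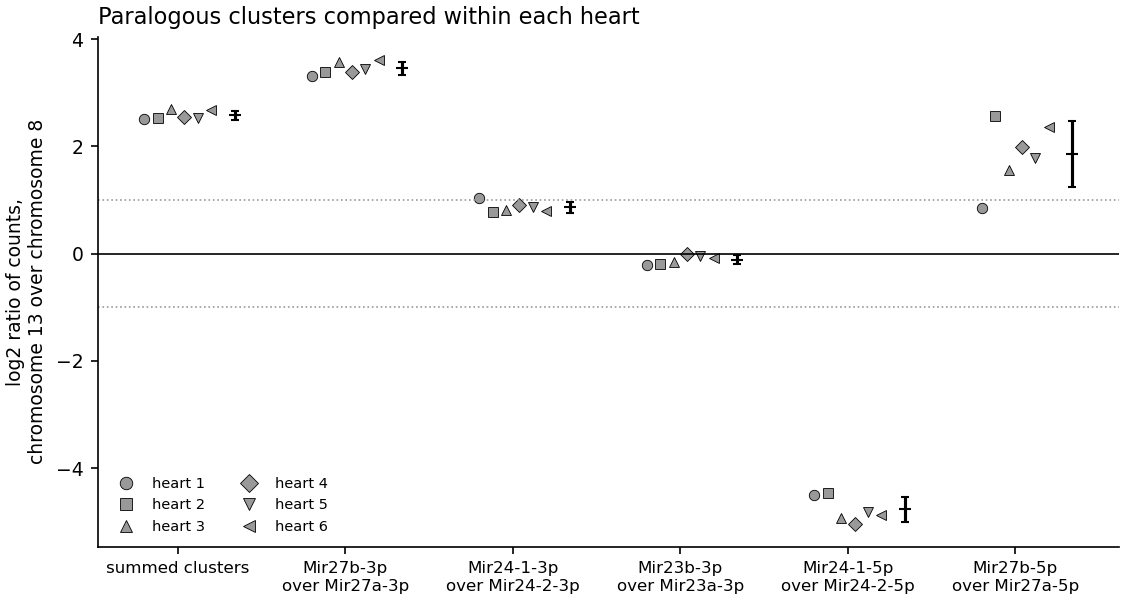
Log2 ratio of counts, chromosome 13 over chromosome 8, in each of 6 hearts (symbols) with mean and SD, for the summed clusters and the 5 tested pairs of arms. Dotted lines mark 2-fold: by mean, miR-27-3p sits above 3, miR-24-3p just under 1, miR-23-3p near 0 and miR-24-5p under -4.

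Every member hairpin gave more 3p than 5p reads, but to very different degrees. Mir27b, Mir27a, Mir24-1 and Mir24-2 were called for the 3p arm, beside 40.1% of the 232 hairpins tested in the files. Mir23a and Mir23b were called too. They entered this test through their 3p arm alone, since their 5p arms averaged 0.667 and 1.17 reads against the minimum of 10, so nothing is read from their calls and ranks. The largest adjusted p-value of a member hairpin was 1.32e-59 (Mir24-2, edgeR), which rests on a spread pooled over all hairpins, and the exact permutation p over 6 hearts cannot go below 0.03125. By size of the 3p excess, Mir27b ranked 10, Mir27a 17, Mir24-1 29 and Mir24-2 81 of 232.

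Mir24-2 kept the most of its 5p arm. The 5p arm had 17.6% of the reads of Mir24-2 in heart 5, a median of 22.8% and 26.7% in heart 3. In Mir24-1 the share ran from 0.415% in heart 5 over a median of 0.591% to 0.740% in heart 2. The excess of 3p over 5p reads was 49.5-fold larger in Mir24-1 than in Mir24-2 (6 of 6 hearts, exact p = 0.03125). Since the miR-24-3p reads cannot be assigned by sequence, this ratio depends on how they were booked, while the 26.9-fold difference between the 5p arms does not depend on the 3p counts.

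The miR-27 hairpins gave few 5p reads. The share was 0.0563% ± 0.0110 in Mir27b (592 of 1063297 reads) and 0.178% ± 0.0612 in Mir27a (170 of 96993 reads), so the 3p excess was 3.03-fold larger in Mir27b (6 of 6 hearts, exact p = 0.03125). This value too depends on how the miR-27-3p reads were divided between the loci, whereas the 3.48-fold difference between the 5p arms does not use the 3p counts. Mir23b gave 6241 reads of 3p for each read of 5p (exact binomial 95% interval 3029 to 15525) and Mir23a 11802 (4609 to 43318). The 2 intervals overlap, so the order of the miR-23 hairpins is not settled by the counts.

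**Figure D4:**
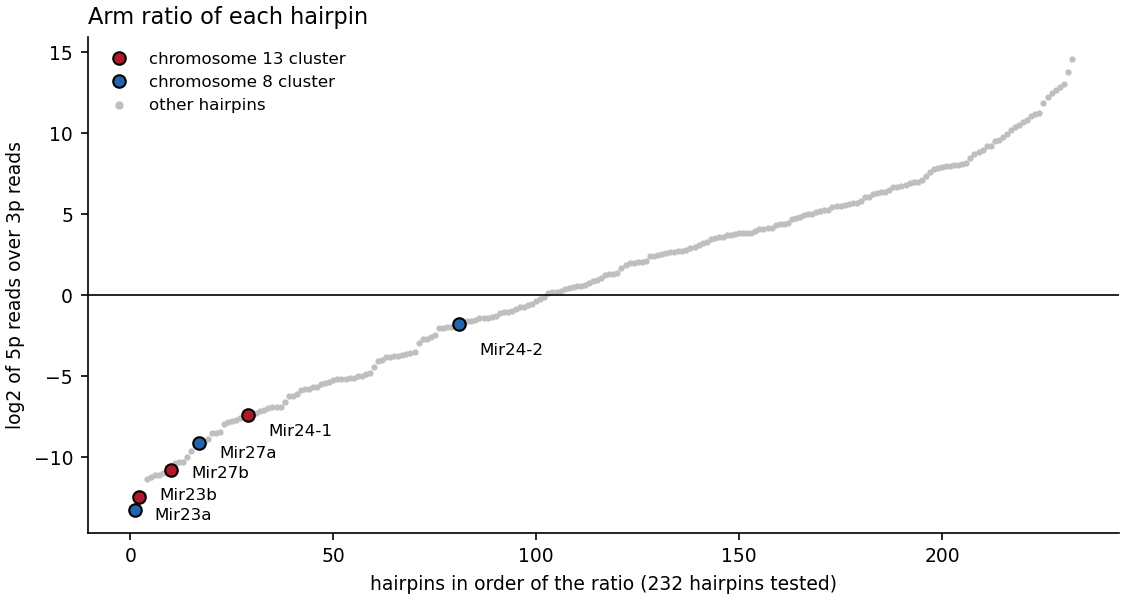
Log2 of 5p over 3p reads for the 232 hairpins tested, in order, with the 6 member hairpins coloured by cluster. All 6 lie below 0, with Mir24-2 at rank 81. Mir23a and Mir23b, at the far left, passed the count minimum through their 3p arm alone, so nothing is read from their place.

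Hairpins of one cluster differed in reads, while their precursor RNA was not measured. Ratios with miR-24-3p or miR-27-3p depend on how their reads were divided between the loci. Among 12 same-arm pairs of member hairpins, 9 were called, next to 84.9% of the 416 pairs of hairpins within 10 kb in the files. Of these 12 pairs, 4 hold the 5p arm of Mir23a or Mir23b and passed the minimum only through the other arm, so nothing is read from their calls. Of the other 8 pairs, 5 were called. On chromosome 13, miR-27b-3p was 24.5-fold above miR-23b-3p (ratio 21.4 to 26.7 over the hearts) and 14.2-fold above miR-24-3p of Mir24-1 (11.6 to 18.1). The latter was 1.73-fold above miR-23b-3p (1.45 to 1.94, 6 of 6 hearts), which is under 2-fold. On chromosome 8 the guide arms were closer. miR-27a-3p was 2.06-fold above miR-23a-3p (1.95 to 2.17) and 2.35-fold above miR-24-3p of Mir24-2 (1.94 to 2.68), each in 6 of 6 hearts (largest edgeR adjusted p 1.38e-16). The median ratio over all 416 pairs, which include pairs with a near-empty row, was 13.3-fold. The pairs of the chromosome 8 guide arms were below it. The ratio of miR-27b-3p to miR-23b-3p was above it in every heart. That of miR-27b-3p to miR-24-3p of Mir24-1 lay on both sides of it.

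In 2 neighbour pairs the hearts did not all go one way, and the exact test over hearts was not passed. miR-23a-3p was 1.14-fold above miR-24-3p of Mir24-2 in 4 of 6 hearts (edgeR adjusted p = 0.0190, range over the alternatives 0.00454 to 0.0994, exact p = 0.125). miR-27b-5p stood 1.34-fold above miR-24-1-5p in 4 of 6 hearts (edgeR adjusted p = 0.00625, range 0.000204 to 0.198, exact p = 0.125), and without heart 4 the adjusted p was 0.0743. The 5p arms on chromosome 8 were far apart, with 69.8-fold more reads of miR-24-2-5p than of miR-27a-5p (edgeR, 47.9 to 138 over the hearts).

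The spread between hearts set the hairpins apart as well. A chi-square test of the 6 counts against the library totals found more spread than counting gives in all 10 member arms that averaged 10 or more reads, next to 73.0% of 381 rows. In deep rows this test responds to small differences, so the size matters more. After TMM scaling, which corrects for differences in composition between libraries, the coefficient of variation (CV, SD over mean) of miR-27b-3p was 3.07%, rank 2 from the lowest among 232 rows with a mean of at least 100 reads. Before scaling it was 5.44%.

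miR-27a-3p (CV 5.33%, rank 7), miR-23a-3p (5.40%, rank 8) and miR-24-2-5p (6.21%, rank 18) were also among the steadier rows. miR-23b-3p had 9.42% (rank 73), and miR-24-3p had 14.0% on Mir24-1 and 14.4% on Mir24-2 (ranks 130 and 138). The difference between the miR-24-2 arms shows in single hearts. In heart 5 the scaled CPM of miR-24-3p at Mir24-2 was the highest of the 6 (1728) and that of miR-24-2-5p the lowest (368). For low rows the test depended on single libraries. miR-27b-5p had an adjusted chi-square p of 0.00169, and 0.205 without heart 4, which had its highest value (28.0 CPM). That of miR-24-1-5p was 0.0486, and lay between 0.0523 and 0.255 without heart 1, 2, 4 or 6.

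**Figure D5:**
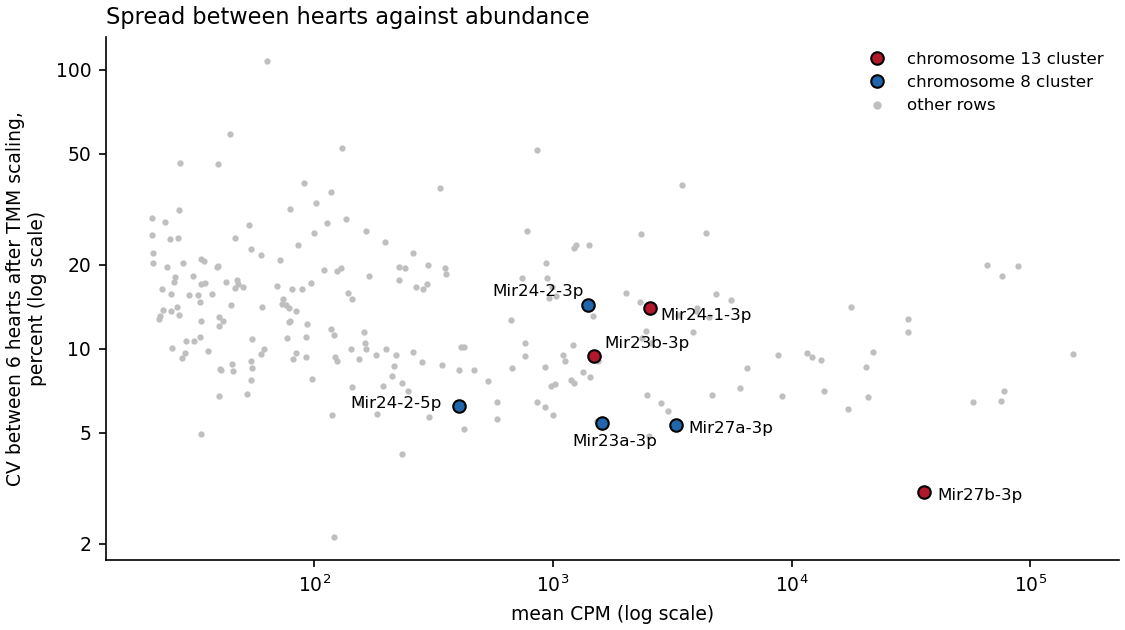
CV between the 6 hearts after TMM scaling (percent, log scale) against mean CPM (log scale) for 232 rows, with member arms coloured by cluster. miR-27b-3p lies lowest of the members at 3.07%, and the miR-24-3p rows highest near 14%.

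Whether paralogs or neighbours varied together between hearts was asked with correlations of log2 CPM after TMM scaling. Of 221 pairs in the files whose rows both averaged 100 or more reads, 0 passed an adjusted p of 0.05 with Pearson's r (0% of the pairs) and 0 with Spearman's rho, while 53 stayed under 0.05 before adjustment (two-sided exact permutation over 6 hearts). For rho the smallest exact p that 6 hearts allow is 0.00278, and for r it is lower. A pair could pass the adjustment only if several others had low p-values too. The count of 0 therefore does not show that pairs vary apart. The median r over the 221 pairs was 0.47. The 2 rows of miR-24-3p had r = 0.88 over the hearts, with an exact p of 0.0194 that became 0.128 after adjustment, and a rho of 0.83 with an exact p of 0.0583. With hearts 3 and 5 left out, which lay farthest from the median, r was 0.30, so the relation of the miR-24-3p rows rests on those hearts. As both rows hold the same sequence, this r cannot tell loci that vary together from shared reads divided between the rows.

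miR-23b-3p and miR-23a-3p had r = 0.81 with an exact p of 0.0222, which adjustment raised to 0.133, and a rho of 0.60 (exact p = 0.242). That r fell to 0.26 without hearts 4 and 5, on which it rests. miR-27b-3p and miR-27a-3p had r = -0.80 with an exact p of 0.0611 (0.241 adjusted) and a rho of -0.89 with an exact p of 0.0333. Their r was -0.66 without hearts 1 and 3 but 0.36 when the counts were scaled by library totals without TMM factors. The sign of the miR-27 relation therefore depends on the scaling.

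Among neighbours, miR-23a-3p with miR-27a-3p had r = 0.72 (exact p = 0.118, adjusted p = 0.347; rho = 0.49, exact p = 0.356; r = 0.50 without hearts 5 and 6). miR-23b-3p with miR-27b-3p had r = -0.01 (exact p = 0.963, adjusted p = 0.976; rho = 0.26, exact p = 0.658; r = 0.61 without hearts 4 and 5). The other 4 neighbour pairs of guide arms had r between -0.18 and 0.38 (exact p between 0.514 and 0.968), and none kept its sign under all settings. Without the 2 hearts farthest from the median, miR-23b-3p with miR-24-3p of Mir24-1 went from 0.38 to -0.97, and miR-27b-3p with the latter from -0.18 to 0.74. On chromosome 8, miR-27a-3p with miR-24-3p of Mir24-2 went from 0.02 to -0.47 in that way, and miR-23a-3p with miR-24-3p of Mir24-2 had r = 0.24, with values from -0.57 (without heart 5) to 0.76 when single hearts were left out.

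The rows most like the leading arm of each cluster were found by the same measure over 6 hearts among 225 other rows that averaged 100 or more reads, given as a description. For miR-27b-3p they were Mir204-5p (r = 0.91), Mir148a-3p (0.90) and Mir181a-1-5p (0.82). For miR-27a-3p they were Mir19b-1-3p (r = 0.93), Mir29a-5p (0.87) and Mir20a-5p (0.86). Mir19b-1 and Mir20a belong to the miR-17-92 cluster, known for its part in cell proliferation.

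Among other miRNAs studied in blood vessels, most had fewer reads than the guide arms of the clusters. All 18 hairpins listed for this had rows, with 9.60% ± 0.523 of the counts, and the leading one was Mir126-5p at 77582 ± 4338 CPM. The leading arm of 16 of the 18 lay below the mean of miR-23b-3p and of miR-23a-3p. These 2 arms ranked 49 and 46 among the 1064 rows used, so nearly all rows lay below them, and nothing particular to the vascular list is read from this. Besides Mir126, Mir92-1 of the miR-17-92 cluster lay above both, with Mir92-1-3p at 2317 ± 281 CPM, and it stood below miR-27a-3p. This compares reads and not molecules.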

How the data were processed

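Small RNA of heart tissue was sequenced in 6 libraries, with adapters ligated to both RNA ends by a TruSeq kit, per the labels' protocols. The deposited files hold raw read counts for each miRNA arm and locus, not normalized by the authors, with a name and a location per row, per the file headers. The build was GRCm38, and DESeq and edgeR are named without a role, per the submitters' processing notes. Not given in the sources used here are the aligner and how reads with several matching loci were counted. No other column of per-sample values was present.

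All 1102 rows entered the library totals. Of 76 antisense rows, 38 were taken for the hairpin that GENCODE vM21 (GRCm38) annotates on the other strand and 38 were not used further. CPM used these totals. Arms, paralogs and neighbours within 10 kb were put to the quasi-likelihood test of edgeR 4.0.16 (R 4.3.3), with the library as a block, Benjamini-Hochberg adjustment over all pairs and a mean of at least 10 reads, and for members with exact sign-flip permutation tests over 6 hearts. Spread was tested by chi-square with Benjamini-Hochberg adjustment. Co-variation used log2 CPM with TMM scaling, a prior count of 1, a mean of at least 100 reads and all 720 orders of the hearts. With 1 group, no contrast between groups was made.

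The rule for named miRNAs takes the 12 member arms, the 3 rows most correlated with the leading arm of each cluster, miRNAs that share a guide seed, and the leading row of a list of vascular miRNAs. Marker lists of cardiac muscle, endothelium, smooth muscle, erythroid cells and leukocytes checked the tissue. Listed hairpins that the files give under an older name (Mir126, Mir18, Mir92-1, Mir145, Mir451) were matched to it. The members and lists were chosen with earlier results of these data known. Alternatives were TMM factors, totals of sense rows, DESeq2 1.42.0, other count minimums, no block, a distance of 50 kb, leaving out each heart and, added after seeing the data, sense rows only and leaving out hearts 4 and 5.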

Additional observations from a re-analysis of the deposited data

Results flagged for a closer look

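Of 29 member values looked at for a heart far from the other 5 (the CPM of each arm, the sums, the paralog ratios and the 5p shares), 1 was marked, and chance marks about 1 in 20. The CPM of miR-24-3p summed over both loci was 5071 in heart 5, with the next heart at 3917 and the lowest at 3282. Heart 5 also had the largest library, at 6007351 counts, and both loci were highest in it after TMM scaling as well (3144 CPM on Mir24-1 and 1728 on Mir24-2). The part of library depth in this value was not tested.

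Reads were also present on the strands opposite to the members, in rows that the comparisons do not use. Over the 6 libraries, the row antisense to the 3p arm of Mir24-2 had 16 reads (1 to 4 per heart). The rows of Mir3074-1, opposite to Mir24-1, had 32 reads for the 3p arm (3 to 7 per heart) and 7 reads for the 5p arm (0 to 2 per heart). All 3 totals lie above the limit of 3 counts that a count of 0 allows.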

How the results depend on the processing

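Of 557 values recomputed under alternatives for 48 results, 522 were unchanged, 8 lost significance (all chi-square tests of miR-27b-5p and miR-24-1-5p) and 4 moved. The other 23 changed the sign of a correlation that was not called. Unchanged means the same direction and side of the threshold for a call (an adjusted p under 0.05 and, for ratios, 2-fold). For counts of calls and the cluster ratio it means a value close to the main one. Some values could not differ, or hardly: scaling of a library cancels in the cluster ratio and, nearly, in the blocked fits of arms and pairs. Correlations without 2 hearts could be called only if most pairs reached the lowest possible p. Of 17 member pairs of paralogs and neighbours, 3 that lay under 2-fold crossed an adjusted p of 0.05 in 13 values: miR-23b-3p with miR-23a-3p in 5 of 12, miR-23a-3p with miR-24-3p of Mir24-2 in 5 of 13 and miR-27b-5p with miR-24-1-5p in 3 of 12. With library totals in place of TMM, r was 0.36 for miR-27b-3p with miR-27a-3p, 0.77 for miR-23b-3p with miR-27b-3p and 0.16 for miR-27b-3p with miR-24-3p of Mir24-1. For miR-23b-3p with miR-27b-3p (r = -0.01) Spearman's rho was 0.26, r was 0.61 without hearts 4 and 5 (which are also the farthest from the median), and it ran from -0.34 to 0.28 when single hearts were left out. For miR-23b-3p with miR-24-3p of Mir24-1 (0.38) rho was -0.086, r without hearts 4 and 5, again the farthest, was -0.97, and single hearts gave -0.22 to 0.67. For miR-27b-3p with miR-24-3p of Mir24-1 (-0.18) r was 0.74 without the 2 farthest hearts, and single hearts gave -0.61 to 0.51. For miR-23a-3p with miR-24-3p of Mir24-2 (0.24) r was -0.53 without hearts 4 and 5, and single hearts gave -0.57 to 0.76. For miR-27a-3p with miR-24-3p of Mir24-2 (0.02) rho was -0.14, r was -0.14 without hearts 4 and 5 and -0.47 without the 2 farthest, and single hearts gave -0.33 to 0.41. The cause of these changes was not tested.

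The log2 cluster ratio of 2.58 was 2.83 without miR-24-3p (7.09-fold) and 2.49 with sense rows only, which leave out Mir24-1 (5.60-fold), and it ran from 2.56 to 2.597 when each heart was left out in turn. Leaving out a heart gives no test here, since 5 hearts cannot reach an exact p under 0.0625. The count of called neighbour pairs rose from 353 to 551 without a count minimum and to 655 with pairs up to 50 kb, where more pairs are tested. It was 306 with sense rows only, and 335 to 368 when each heart was left out. Called hairpins (210) ran from 200 to 242 and called paralog pairs (228) from 188 to 317 over the alternatives. Without the replicate block that ties the 2 members of a pair to their library, 210 hairpins, 229 paralog pairs and 353 neighbour pairs were called, and no member call changed, although the adjusted p of miR-23b-3p against miR-23a-3p, which was not called, became 0.248. Without hearts 4 and 5, the paralog ratios were 11.1-fold for miR-27-3p, 1.81-fold for miR-24-3p, log2 -0.16 for miR-23-3p, 3.58-fold for miR-27-5p and 25.8-fold lower for miR-24-5p. Depth limits the 5p arms of Mir23a and Mir23b, whose ratio to each other cannot be given.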
